A study of Equus caballus with 2 samples.

Results

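The genes described here are those of the unfolded protein response and the chaperones of the endoplasmic reticulum (ER), chosen by symbol from a list of 10. Of these, 9 were found among the 21426 genes of both count tables: *HSPA5*, *HSP90B1*, *SDF2L1*, *CRELD2*, *CALR*, *PDIA4*, *HERPUD1*, *XBP1* and *DDIT3*. *DNAJB9* was not found by symbol and was not analysed here. The measurements came from droplet single cell RNA sequencing of cultured equine endometrial fibroblasts, in passage 3 and on collagen-coated hydrogels, in which every captured transcript is counted once by its unique molecular identifier (UMI). Cells of 4 mares were pooled for each library, and there was 1 library per group. The control library was kept in medium with 0.1% bovine serum albumin and received no further supplementation, and the TGF-β1 library was given human recombinant TGF-β1 at 10 ng/ml in the same medium for 24 h, from 48 to 72 h of culture. No mare was assigned to a cell here, so no test between samples could be made, and library and treatment cannot be told apart.

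The ER folds the proteins that a cell secretes or places in its membranes, and fibroblasts send large amounts of collagen and fibronectin through it. When unfolded proteins accumulate, the chaperone BiP, the product of *HSPA5*, is drawn away from the sensors IRE1, PERK and ATF6. IRE1 splices the *XBP1* transcript, ATF6 is cleaved to a transcription factor, and both routes induce chaperones and degradation factors. PERK slows translation and raises ATF4, which in turn induces *DDIT3* (CHOP) and other genes of the integrated stress response.

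Kept were barcodes with 20000 UMIs or more, 3500 genes or more and less than 4% mitochondrial UMIs. They were 3865 control cells with 210497250 UMIs and 4513 TGF-β1 cells with 219731144 UMIs, and the median cell had 50313 and 43142 UMIs, of which 1.47% and 1.21% were mitochondrial. The libraries shared 6 barcodes, 2 of them among kept cells. All 9 fibroblast markers were detected, with a summed level of 21715 UMIs per 1000000 UMIs (CPM) in control and 21795 CPM in TGF-β1, but *VIM*, *PDGFRA*, *PDGFRB* and *THY1* were each more than 1.5-fold lower in the TGF-β1 library, and the part of this in the results below was not tested. The epithelial markers found summed to 0.0333 and 0.0319 CPM and the endothelial markers to 0.527 and 0.250 CPM. *PTPRC* had 1 UMI in control and 0 in TGF-β1, whereas *CD68* stood at 42.6 and 43.1 CPM. The 4 mural markers summed to 747 and 657 CPM, most of it *DES*, while *MYH11* (42.9 and 25.3 CPM) and *MCAM* (5.78 and 1.75 CPM) were lower and *RGS5* (51.7 and 61.1 CPM) higher in TGF-β1. *FN1*, a gene known to respond to TGF-β, was at 1934 CPM in control and 6087 CPM in TGF-β1, and *IGFBP3* and *TAGLN* had log2 ratios of 4.87 and 0.62.

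The 9 genes did not differ between the libraries in one direction. The chaperones *HSP90B1*, *SDF2L1*, *CRELD2* and *CALR* and the disulfide isomerase *PDIA4* were higher in the TGF-β1 library, while BiP (*HSPA5*) and the transcription factors *XBP1* and *DDIT3* were lower. *HERPUD1*, a factor of ER-associated degradation, did not differ detectably. The levels below are the CPM of a gene over all kept cells of a library, and each ratio is the log2 of the TGF-β1 level over the control level. Their 95% intervals are exact binomial and cover counting error only, not the spread between mares or cultures. In pooled levels, fewer cells with a transcript and fewer transcripts per cell cannot be told apart, so values per cell are given further on.

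*HSP90B1* encodes GRP94, the Hsp90 chaperone of the ER. Its level was 884 CPM in control and 1285 CPM in TGF-β1, a log2 ratio of 0.54 (0.53 to 0.55). *SDF2L1*, a cofactor of BiP, was at 103 CPM and 145 CPM, a log2 ratio of 0.50 (0.47 to 0.52). *CRELD2*, a secreted ER protein induced by ER stress, was at 62.2 CPM and 95.1 CPM. This 1.53-fold difference, a log2 ratio of 0.61 (0.58 to 0.64), was the highest of the 9 and stood at percentile 94.4 of the ratios of the 7658 genes whose mean over both libraries reached 10 CPM.

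*CALR* encodes calreticulin, which binds the sugar chains of newly made glycoproteins. It was at 449 CPM in control and 631 CPM in TGF-β1, a log2 ratio of 0.49 (0.48 to 0.50). *PDIA4*, which forms and exchanges disulfide bonds, was at 104 CPM and 131 CPM, a log2 ratio of 0.34 (0.31 to 0.36). All 5 of these folding genes were thus higher in the TGF-β1 library, by 1.26-fold to 1.53-fold.

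*HSPA5* went the other way from its partner chaperones. Its level was 719 CPM in control and 647 CPM in TGF-β1, a log2 ratio of -0.15 (-0.16 to -0.14). The ratio of *HSP90B1* UMIs to *HSPA5* UMIs was therefore 1.23 in control and 1.98 in TGF-β1. *HERPUD1* was at 119.0 CPM and 119.3 CPM, and its interval on the log2 scale ran from -0.02 to 0.03. Both log2 ratios lay between the quartiles of all genes, -0.19 and 0.20.

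The transcription factors were lower in the TGF-β1 library. *XBP1* was at 282 CPM in control and 247 CPM in TGF-β1, a log2 ratio of -0.19 (-0.21 to -0.18). The counts are per gene and do not separate the spliced from the unspliced form. *DDIT3* was at 127 CPM and 90.3 CPM, a log2 ratio of -0.49 (-0.51 to -0.46), 1.40-fold lower and at percentile 8.44 of all genes. It was the lowest ratio of the 9.

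Counted over the list, 6 of 9 genes were higher and 3 lower, *HERPUD1* being among the 6 with an interval that includes 0. The median log2 ratio of the 9 was 0.34, against 0.01 over the 7658 genes, of which 51.4% were higher. More than 1.5-fold higher was 1 of 9 genes, *CRELD2*, where 6.19% of all genes passed the same limit. More than 1.5-fold lower were 0 of 9 genes, against 6.48% of all genes. Summed, the 9 genes took 0.285% of UMIs in control and 0.339% in TGF-β1.

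**Figure D1:**
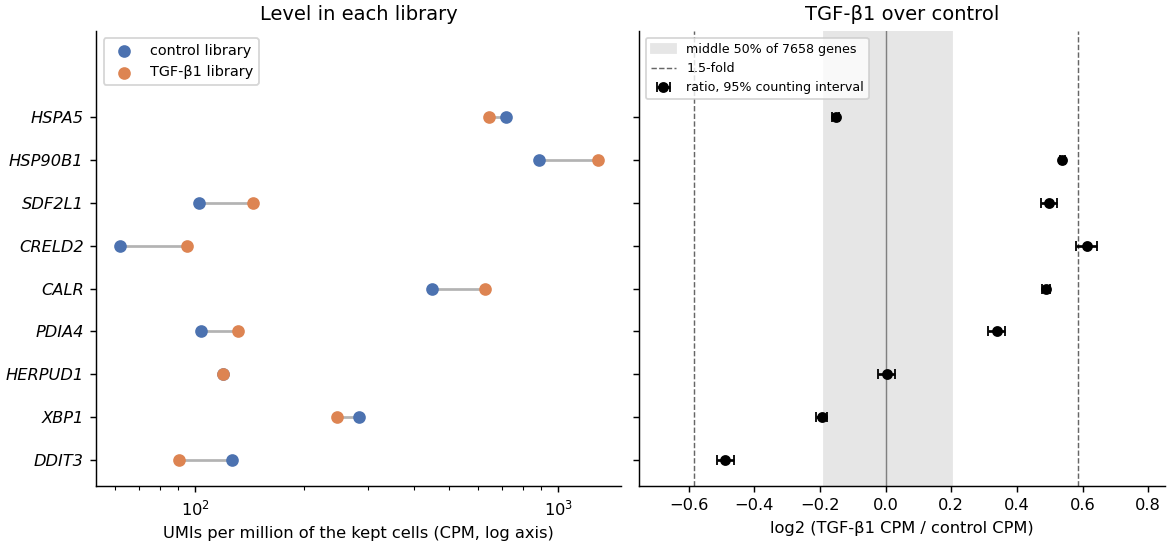
Left, level of each of the 9 genes in the control and TGF-β1 libraries, in CPM on a log axis, 1 library each. Right, the log2 ratio with its 95% counting interval, the middle 50% of 7658 genes in grey and the 1.5-fold limits dashed. The 5 folding genes lie to the right, from 0.34 to 0.61, and *HSPA5*, *XBP1* and *DDIT3* to the left of 0.

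Single cells were compared after random thinning of every kept cell to 20000 UMIs, for which none had to be left out. The sum of the 9 genes had a median of 55 UMIs per control cell (5th to 95th percentile 36 to 82) and of 67 per TGF-β1 cell (43 to 97). Of TGF-β1 cells, 77.5% lay above the control median and 17.6% above the control 95th percentile. The distributions were shifted and overlapped widely.

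The same shift was seen for the abundant chaperones cell by cell. *HSP90B1* had a median of 17 UMIs in control cells and 25 in TGF-β1 cells, and the control upper quartile of 21 was near the TGF-β1 lower quartile of 19. *CALR* had a median of 8 and 12 UMIs, whereas *HSPA5* had 14 and 12. At least 1 *HSPA5*, *HSP90B1* or *CALR* UMI was found in more than 99% of the cells of either library.

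The less abundant genes were also found in different shares of thinned cells, with intervals that cover counting error only and treat cells of 1 library. *CRELD2* was detected in 66.5% of control cells (65.0% to 68.0%) and 81.0% of TGF-β1 cells (79.8% to 82.1%), and before thinning in 89.7% and 94.8%. With a mean of 1.21 and 1.90 UMIs per thinned cell, its level is too near to 1 UMI for reading single cells. *SDF2L1* was detected in 84.4% and 91.0% of thinned cells, and in 96.8% and 98.5% before thinning. *PDIA4* was detected in 84.5% and 90.3%, and in 97.5% and 98.3% before thinning.

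*DDIT3* was detected in 84.8% of thinned control cells (83.7% to 86.0%) and 79.5% of TGF-β1 cells (78.3% to 80.7%), and in 96.9% and 93.7% before thinning. *HERPUD1* was detected in 87.5% and 87.2%, and before thinning in 98.1% and 97.3%. *XBP1* was detected in about 99% of cells of both libraries, with means of 5.68 and 4.95 UMIs. No cell type that should lack these genes was present, so the share that free RNA in the droplets gives was not measured.

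The variance of the thinned UMIs over cells was also set against their mean. The Fano factor, the variance over the mean of the thinned UMIs and close to 1 for pure counting noise, was 1.11 and 1.23 for *PDIA4* in control and TGF-β1 cells. It was 2.93 and 2.78 for *HSPA5*, at means of 14.4 and 13.1 UMIs, and 2.84 and 3.34 for *HSP90B1*, at 17.4 and 25.7 UMIs. At the same relative spread this factor rises with the mean, so it does not rank genes or libraries of unlike mean. *DDIT3*, at means of 2.54 and 1.86 UMIs, reached 2.17 in control and 1.61 in TGF-β1. *HERPUD1*, at 2.40 and 2.37 UMIs, had 1.42 and 1.38.

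This spread of *DDIT3* came with a tail of cells. At least 10 *DDIT3* UMIs, a limit chosen after its values were seen, were found in 51 of 3865 control cells, or 1.32% (0.984% to 1.73%), and in 12 of 4513 TGF-β1 cells, or 0.266% (0.137% to 0.464%). The highest cell had 39 UMIs in control and 29 in TGF-β1. In the 51 control cells, the mean of *GADD45A*, a growth arrest gene, was 2.17 times its 6.93 UMIs in the rest, that of *TRIB3* 2.94 against 1.52 and that of *HERPUD1* 3.84 against 2.38. *HSPA5* was at 18.5 UMIs against 14.3 there, and at 20.7 against 13.1 in the 12 TGF-β1 cells, in which *GADD45A* and *TRIB3* were at 2.78 and 2.41 times their means in the rest. *HSP90B1* in the 51 control cells was at 16.9 UMIs against 17.4. In the 12 TGF-β1 cells it was at 32.2 UMIs against 25.7, and *HERPUD1* was at 1.83 against 2.37. Of the genes compared in this way, *HSPA5*, *GADD45A*, *TRIB3*, *ATF4* (1.36 and 1.22 times) and *CHAC1* (1.35 and 1.56 times) were higher in these cells in both libraries. *ATF3* (1.30 and 0.803 times), *XBP1* (6.80 against 5.66 UMIs in control and 3.92 against 4.95 in TGF-β1), *HERPUD1* and *HSP90B1* were higher in 1 library and lower in the other. The TGF-β1 values rest on 12 cells.

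**Figure D2:**
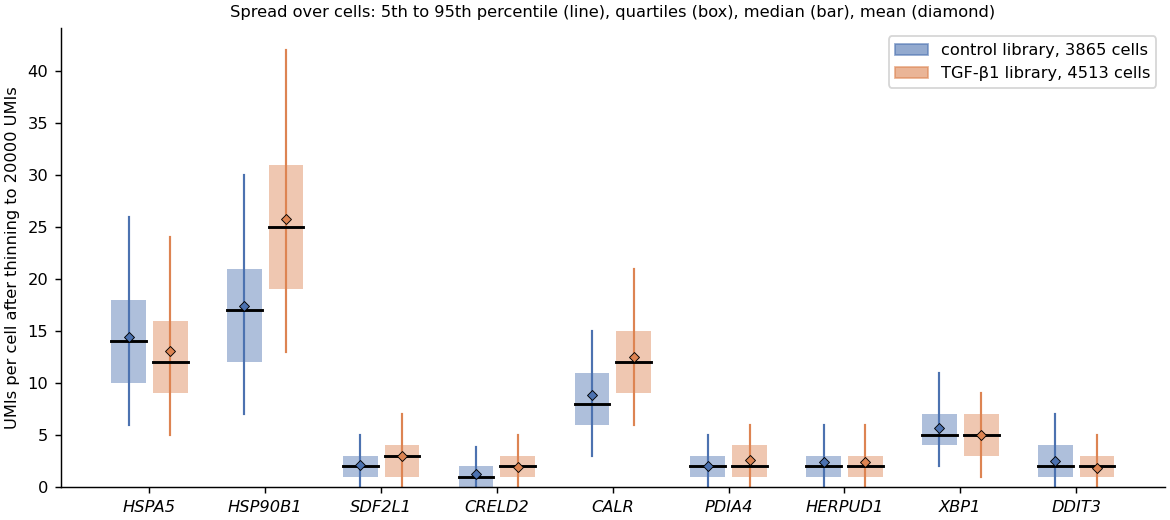
UMIs per cell of each gene after thinning to 20000 UMIs, for 3865 control and 4513 TGF-β1 cells, with the 5th to 95th percentile as a line, quartiles as a box, the median as a bar and the mean as a diamond. *HSP90B1* and *CALR* are shifted upwards in TGF-β1 cells, with means of 25.7 and 12.5 UMIs against 17.4 and 8.83.

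The wider lists place the 9 genes among the others of their pathway. In the ER Hsp70 and Hsp90 system, 12 of 16 genes that reached a mean of 10 CPM were higher in the TGF-β1 library and 4 lower, with a median log2 ratio of 0.26. *DNAJB11*, a co-chaperone of BiP, was at 62.5 CPM in control and 102 CPM in TGF-β1, a log2 ratio of 0.71. *MANF*, a secreted ER stress protein that binds BiP, was at 362 CPM and 571 CPM, a log2 ratio of 0.66. These 2 and *CRELD2* were the genes past 1.5-fold, 3 of 16 against 6.19% of all genes. Besides *HSPA5*, the lowest were *HSPA13* with -0.14 and *CNPY3* with -0.07.

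Among lectin chaperones and glycoprotein folding genes, 7 of 8 were higher, with a median of 0.12. *UGGT2*, a sensor of glycoprotein folding, had a log2 ratio of 0.43, and *PDIA3*, the isomerase that works with calreticulin, one of 0.40. The glucosidase genes were the lowest, *PRKCSH* with -0.07, *GANAB* with 0.04 and *MOGS* with 0.06. Of the disulfide isomerases and oxidases, 11 of 16 were higher and 5 lower, with a median of 0.14. *TXNDC5* had a log2 ratio of 0.37, while *TMX2*, *TMX4* and *TMX3* had -0.26, -0.26 and -0.15, and *TMX1* of the same family had 0.11.

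For ER-associated degradation, 16 of 19 genes were higher and 3 lower, with a median of 0.12. *EDEM1*, which marks glycoproteins for degradation, was at 52.5 CPM in control and 76.5 CPM in TGF-β1, a log2 ratio of 0.55. *DERL1*, of the export channel, and the lectin *ERLEC1* both had 0.30. The lowest were *HERPUD2* and *OS9*, both with -0.10, and *FAF2* with -0.01. Joined, the 4 ER lists held 58 genes, of which 45 were higher. Without the 7 of them that belong to the 9 genes they held 51, of which 39 were higher, with a median of 0.12. In the last 3 of these lists 0 genes were past 1.5-fold, where 6.19% of all genes were higher and 6.48% lower by this limit.

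Sensors and transcription factors had the opposite balance, with 4 of 13 genes higher, 9 lower and a median of -0.15. *CREB3L2*, an ER-bound transcription factor of the CREB3 family, stood apart with 96.1 CPM in control and 220 CPM in TGF-β1, a log2 ratio of 1.19 (1.17 to 1.22). *CREB3* had 0.17 and *EIF2AK3*, the gene of PERK, 0.14. *ERN1*, the gene of IRE1, was at 66.3 CPM and 48.1 CPM, a log2 ratio of -0.46, and *CREB3L1* had -0.42. The transcript of *ATF4* was at 667 CPM and 599 CPM, and that of *ATF6* at 95.8 CPM and 104 CPM.

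The listed targets of the integrated stress response were mostly lower in the TGF-β1 library, and targets outside this list were not counted. Of 9 genes, 7 were lower and 2 higher, with a median of -0.49, the value of *DDIT3* itself, and 4 were past 1.5-fold lower, where 6.48% of all genes were. These were *ATF3*, at 288 CPM and 147 CPM with a log2 ratio of -0.97, *DDIT4* with -0.62, *SESN2* with -0.61 and *TRIB3* with -0.59. The highest were *STC2* with 0.29, *ERO1A* with 0.12 and *PPP1R15A* with -0.10. *PPP1R15B*, *TNFRSF10B* and *NUPR1* were not found by symbol.

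Chaperones of other compartments served for comparison. Of the cytosolic chaperones, 6 of 10 were higher, with a median of 0.05. *HSPH1* had 0.37, *HSPB1* 0.33 and *HSP90AA1* 0.20, and *ST13* had -0.15, *HSP90AB1* -0.11 and *HSF1* -0.09. Of the mitochondrial ones, 2 of 7 were higher, with a median of -0.16. *GRPEL1* had 0.12 and *CLPP* -0.07, *TRAP1* lay at 0.0007, and *HSPD1* had -0.28, *DNAJA3* -0.20 and *LONP1* -0.20. Past 1.5-fold were 0 of these genes, which at 6.19% of all genes higher and 6.48% lower says little about lists of this size.

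**Figure D3:**
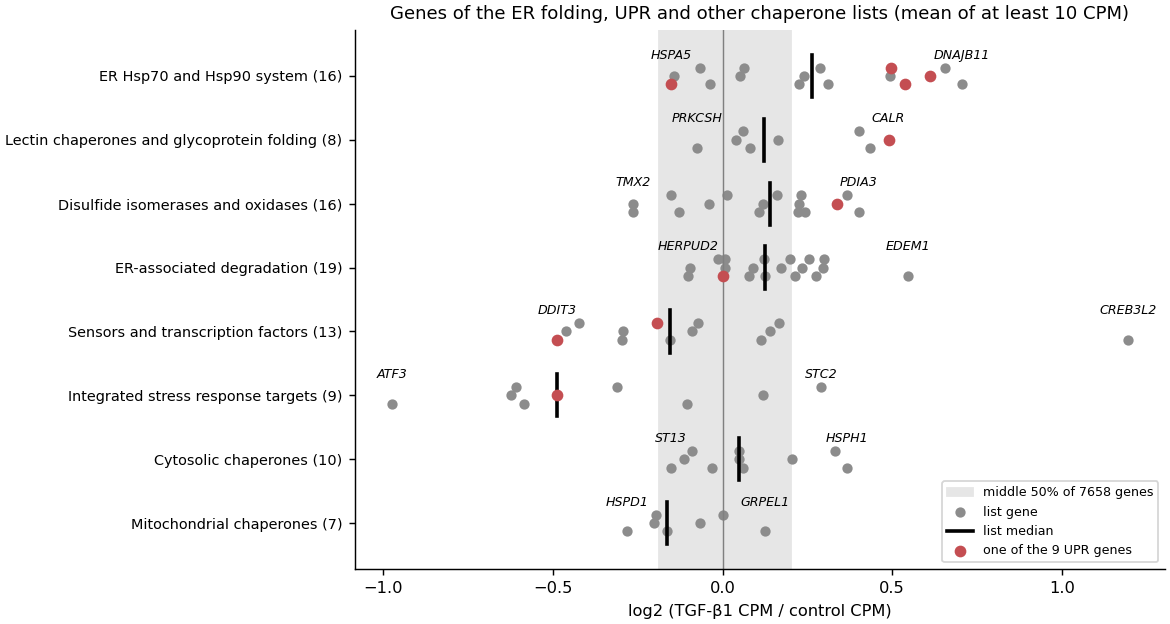
Log2 ratio of TGF-β1 over control for each gene of 8 lists that reached a mean of 10 CPM, the number of genes in brackets, with the list median as a bar and the middle 50% of 7658 genes in grey. The medians of the 4 ER lists lie between 0.12 and 0.26, and that of the integrated stress response targets lies at -0.49.

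Whether the genes varied together was examined cell by cell, within each library. Across the thinned cells of 1 library, which share its preparation and are not replicates, the Spearman correlation of the 36 pairs had a median of 0.07 in control and 0.06 in TGF-β1. The strongest pairs were *HSP90B1* with *CALR* in control (0.27) and *HSPA5* with *HSP90B1* in TGF-β1 (0.26). Above 0.1 lay 14 pairs in control and 13 in TGF-β1, and every one of them but that of *HERPUD1* and *HSPA5* in control joined 2 of the genes *HSPA5*, *HSP90B1*, *SDF2L1*, *CRELD2*, *CALR* and *PDIA4*. For comparison, the 95th percentile of the correlations of one of the 9 with all 3054 other genes of at least 50 CPM lay between 0.05 and 0.11 in control and between 0.04 and 0.10 in TGF-β1, and for *HSP90B1* in control it was 0.11. The median pair was lower at lower depth, 0.03 in both libraries after thinning to 10000 UMIs, and 0.11 and 0.09 on unthinned CPM.

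The transcription factors had lower values. Correlations of *XBP1* with the other 8 genes lay between -0.06 and 0.07 in control, and those of *DDIT3* between -0.03 and 0.10. Few UMIs per thinned cell lower such correlations, though *XBP1*, with means of 5.68 and 4.95 UMIs, had more than *CRELD2*, *PDIA4* or *SDF2L1*. Correlations this weak are not read as a link or as the lack of one, and the same holds for the weaker pairs of *CRELD2*, *PDIA4* and *SDF2L1*. The best partner of *SDF2L1* was *HSP90B1* in control (0.23) and *CALR* in TGF-β1 (0.20), that of *CRELD2* was *CALR* in both (0.16 and 0.18), and that of *PDIA4* was *HSP90B1* in both (0.16 and 0.19). The best partner of *HERPUD1* was *HSPA5* in both (0.11 and 0.09). *XBP1* had *HSPA5* in control (0.07) and *HERPUD1* in TGF-β1 (0.05), and *DDIT3* had *HERPUD1* (0.10) and *HSP90B1* (0.06).

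The correlation with *HSPA5* was then ranked over the 3054 other genes that reached a mean of 50 CPM. *HSP90B1* ranked 2 in control and 1 in TGF-β1, *CALR* 10 and 7, and *SDF2L1* 19 and 8. Of genes outside the 9, *PDIA3* (0.26 and 0.25), *MANF* (0.24 and 0.20) and *PDIA6* (0.19 and 0.24) were among the first in both libraries. *SEC11C* (0.19 and 0.16) and *SPCS2* (0.18 and 0.16) encode subunits of the signal peptidase, which trims proteins entering the ER. *OSTC*, of the oligosaccharyltransferase, had 0.19 in control, and *BCAP29*, an ER membrane protein, had 0.18. *HSPD1*, a mitochondrial chaperone (0.22 and 0.22), and *GPR141*, a receptor gene (0.21 and 0.16), were not ER folding genes. ENSECAG00000045744, without a symbol in the files, had 0.19 in both, and 2 further genes without a symbol were among the 10 in TGF-β1. *XBP1* ranked 157 and 1598, and *DDIT3* 544 and 841.

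The cells at the ends of the *HSPA5* range show the size of this covariation. Between the 10% of control cells with least and the 10% with most *HSPA5*, 386 cells each, the mean of *HSP90B1* was 14.3 and 21.2 UMIs, that of *CALR* 7.65 and 10.1, and that of *SDF2L1* 1.64 and 2.58. In TGF-β1 cells, 451 at each end, *HSP90B1* was at 21.6 and 31.0, *CALR* at 10.9 and 13.9, and *SDF2L1* at 2.41 and 3.74. The means of *XBP1* were 5.12 and 5.98 in control and 4.78 and 4.95 in TGF-β1, and those of *DDIT3* 2.39 and 3.22 in control and 1.87 and 2.06 in TGF-β1. In control, the ratio of the ends was 1.35 for *DDIT3*, above those of *CALR* (1.32) and *PDIA4* (1.31) and below those of *CRELD2* (1.56) and *SDF2L1* (1.57).

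The most correlated of all these genes was also looked up for each of the 9, after the values were seen. *HSP90B1* was most correlated with *PDIA3* (0.39 in control and 0.42 in TGF-β1), the highest values found for any of the 9. *SDF2L1* (0.26 and 0.29) and *CRELD2* (0.17 and 0.22) were most correlated with *MANF*. *CALR* had *HSP90B1* first in control (0.27) and *MANF* in TGF-β1 (0.25), *PDIA4* had *HSP90B1* first in both, and *HERPUD1* had *HSPA5* in control (0.11) and the ubiquitin gene *UBB* in TGF-β1 (0.12). *DDIT3* was most correlated with *GADD45A* (0.22 and 0.15), and *ATF4* was among its first 5 genes in both libraries (0.13 and 0.14). *XBP1* had *CEBPD* first in control (0.19) and *SERPINH1*, the collagen chaperone of the ER, first in TGF-β1 (0.15), ahead of *CEBPD* (0.14), and *ATF4* was among its first 5 in both (0.15 and 0.13).

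**Figure D4:**
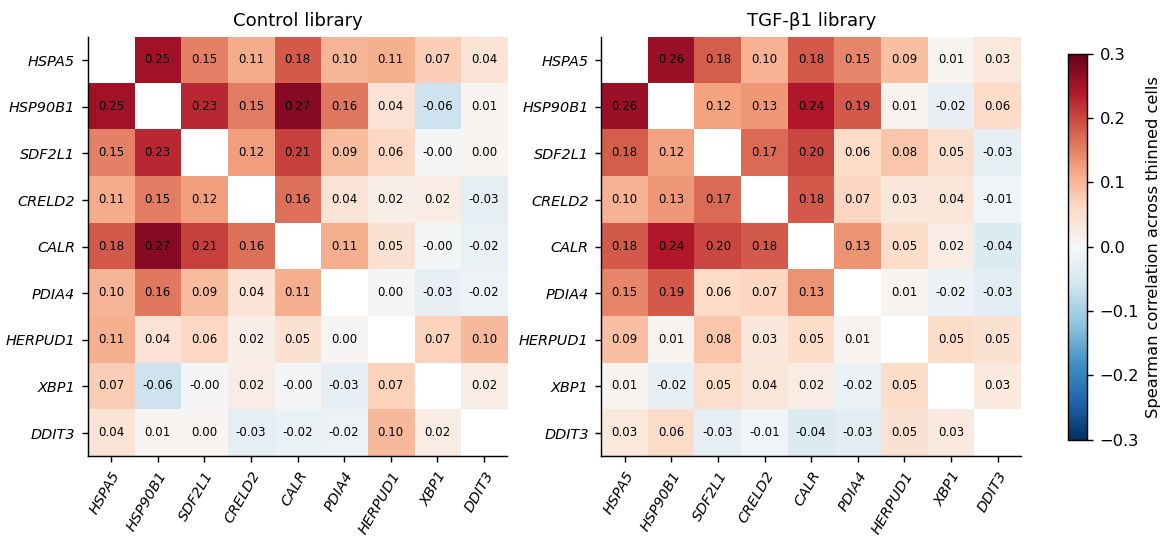
Spearman correlation of each pair of the 9 genes across 3865 control and 4513 TGF-β1 cells thinned to 20000 UMIs, on a colour scale from -0.3 to 0.3. The block of *HSPA5*, *HSP90B1*, *SDF2L1*, *CRELD2*, *CALR* and *PDIA4* holds the highest values in both libraries, up to 0.27, and the rows of *XBP1* and *DDIT3* lie near 0.

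Transcripts of secreted matrix were set beside the summed UMIs of the 9 genes in the same cells. *COL1A1* was at 5608 CPM in control and 6376 CPM in TGF-β1, *COL1A2* at 4256 and 5084 CPM, and *COL3A1* at 4456 and 5583 CPM. Across the cells of a library, the correlation of the sum with *COL1A1* was -0.05 in control and -0.13 in TGF-β1, that with *COL1A2* 0.07 and 0.03, that with *COL3A1* -0.01 and -0.08, and that with *FN1* 0.03 and -0.06. The total UMIs of a cell correlated with the sum by 0.12 and 0.04.

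The cells were grouped without the genes of the lists, into 8 rebuilt clusters that are used by number only. They held 106 to 750 control cells and 58 to 1090 TGF-β1 cells. *HSP90B1*, *SDF2L1*, *CRELD2*, *CALR* and *PDIA4* were higher in TGF-β1 cells in 8 of 8 clusters, and *HSPA5*, *XBP1* and *DDIT3* were lower in 8 of 8. For *HSPA5* the log2 ratio ranged from -0.48 in cluster 7 to -0.01 in cluster 3, where its interval included 0. For *HSP90B1* it ranged from 0.29 in cluster 6, which had the highest level of cycling markers, to 0.68 in cluster 1. *HERPUD1* was higher in 5 clusters and lower in 3, and its interval excluded 0 in cluster 7, where it was at 163 CPM in control and 113 CPM in TGF-β1.

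Cluster 7 also held the highest *DDIT3* level, 272 CPM in control and 228 CPM in TGF-β1, against at most 139 CPM and 107 CPM in the other clusters. It was the smallest, with 106 and 58 cells, and of the cells with at least 10 *DDIT3* UMIs it held 18 of 51 in control and 6 of 12 in TGF-β1. *CA4* was the first of its leading genes by fold in both libraries, at 709 CPM against 9.32 CPM in the other control cells. *CDKN1A*, an inhibitor of the cell cycle, ranked 6 in control, at 526 CPM against 48.0 CPM. *GADD45A* stood at 773 CPM against 337 CPM, *ATF3* at 511 CPM against 282 CPM, and *ATF4* at 619 CPM against 668 CPM. In TGF-β1 cells of cluster 7, *CDKN1A* stood at 669 CPM against 39.2 CPM, *GADD45A* at 2.42 times and *ATF3* at 2.04 times their levels in the other cells, and *ATF4* at 614 CPM against 599 CPM. In control and TGF-β1, *TRIB3* was at 1.25 and 1.27 times its level in the other cells and *CHAC1* at 1.15 and 1.23 times. *DDIT4* was at 1.16 and 1.34 times and *SESN2* at 1.91 and 1.92 times. *HSPA5* was at 787 CPM against 717 CPM in control and at 562 CPM against 648 CPM in TGF-β1.

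**Figure D5:**
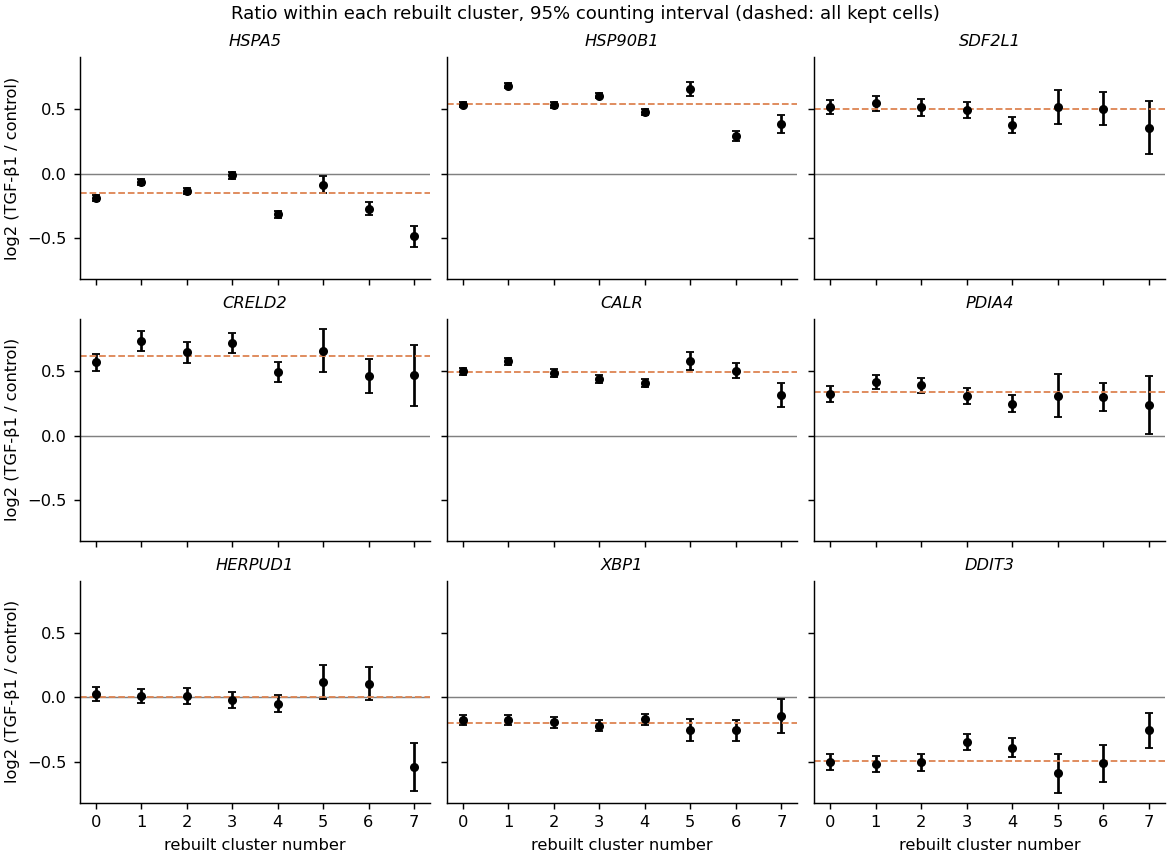
Log2 ratio (TGF-β1 over control) for the 9 genes within the 8 rebuilt clusters, with 95% counting intervals and the ratio over all kept cells dashed. The 5 folding genes lie above 0 and *XBP1* and *DDIT3* below 0 in every cluster, and *HERPUD1* departs from 0 in cluster 7, with -0.53.

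The libraries differed in depth per cell, and the ratios were also computed from cells with 40000 to 60000 UMIs, a range chosen after the data were seen. It held 2065 control and 1907 TGF-β1 cells. *HSP90B1* then had a log2 ratio of 0.63 and was past 1.5-fold together with *CRELD2* at 0.59, while the count of all genes past this limit in either direction was 1142, against 970 over all kept cells. *PDIA4* had 0.43, *CALR* 0.51, *SDF2L1* 0.46, *HSPA5* -0.14, *XBP1* -0.26 and *DDIT3* -0.48. *HERPUD1* was at -0.04. In this range of depth, *HERPUD1* was the only one of the 9 whose log2 ratio changed sign.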

How the data were processed

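The authors deposited UMI counts per gene and cell barcode for each library, made with Cell Ranger (version 7.1.0 by the methods, 8.0.1 by the file headers) against EquCab3.0 and an Ensembl annotation. They were whole numbers without normalization. Doublets were neither called nor removed here. UMIs of the kept cells (88.2% and 88.1% of barcodes) were summed per library and expressed as CPM, without a pseudocount (Python 3.11.15, pandas 2.3.3, numpy 2.4.6 and scipy 1.17.1). No ratio is given where both libraries held 3 or fewer UMIs. With 1 library per group no test was made, and edgeR, which the study used, was not run. Clusters were rebuilt in Seurat 5.3.0 in R 4.3.3 (2000 variable genes less 10 list genes, 30 dimensions, resolution 0.5). The scripts were tested on simulated data. Figures were drawn in matplotlib 3.10.9.

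The genes and lists were chosen with earlier results of these data known. The text names the 9 genes, the 3 highest and 3 lowest ratios of each list, the 10 genes outside the 9 most correlated with *HSPA5* in each library (2 without a symbol are counted only), and each gene's best partner. *ATF4*, *ATF6*, *TMX1*, the genes of the tail of *DDIT3* and of cluster 7, the most correlated genes and all genes named otherwise were added after their values were seen. Promoter motifs were not analysed here.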

Additional observations from a re-analysis of the deposited data

How the results depend on the processing

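Over 12 alternatives (other cell filters, scalings and weightings, of which the depth range and the removal of cluster 7 were added after seeing the data), 108 ratios of the 9 genes were recomputed. Of these, 94 stayed within the counting interval of the value reported and 14 did not. No ratio of a gene whose interval excluded 0 changed sign, and *HERPUD1* ranged from -0.04 to 0.02. *HSPA5* ranged from -0.16 to -0.13, *HSP90B1* from 0.53 to 0.63 and *DDIT3* from -0.50 to -0.45. With cells of 40000 to 60000 UMIs, the median of the 9 was 0.43 and 2 of them were past 1.5-fold, with 1142 genes in all past it. With a fold limit of 2, none of the 9 (0) and 339 genes passed. The count of all genes past 1.5-fold, 970 with a mean of at least 10 CPM, was 2060 at 1 CPM, 383 at 50 CPM and 4517 without a minimum. The cause of these changes was not tested beyond the limits themselves. Median correlations moved by less than 0.05 in every setting. Leaving out a replicate would leave a group empty. No paired analysis was possible because no cell was assigned to a mare here, which leaves 1 library in each group.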

Other observations

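The 519 control and 611 TGF-β1 barcodes that did not pass the filters had a median of 3728 and 6107 UMIs and of 3.23% and 10.2% mitochondrial UMIs. Some of the 9 genes stood near their level in the kept cells there, and others lower. *SDF2L1* was at 54.9 CPM in control and 79.2 CPM in TGF-β1 there, 0.536 and 0.547 times its level in the kept cells, and *XBP1* at 191 and 176 CPM, 0.676 and 0.713 times. *CRELD2* was at 0.765 and 0.720 times, *DDIT3* at 0.978 and 1.11 times and *PDIA4* at 1.18 and 1.07 times. *CALR* was at 371 and 400 CPM, so that its log2 ratio was 0.11, against 0.49 in kept cells. *HSPA5* was at 682 and 688 CPM, with a log2 ratio of 0.01. *HERPUD1* was at 106 and 127 CPM, with a log2 ratio of 0.26 (0.08 to 0.45). *HSP90B1*, at 711 and 1008 CPM, had a log2 ratio of 0.50, close to that of the kept cells.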
